A study of Mus musculus with 4 samples.

Results

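The 8 genes described here encode adhesion molecules of T cells: the integrin chains Itga1, Itgae, Itgb1, Itga4, Itgb7, Itgal and Itgb2, and Cdh1, E-cadherin. They were chosen by symbol, and all 8 were found among the 32285 genes counted in each of 4 single-cell libraries. The libraries hold live CD3+ T cells sorted from subcutaneous tumors in wild-type male C57BL/6J mice, which were 6 weeks old when the tumor cells were injected. They were older when the T cells were taken from the grown tumors. The tumors grew from Tsc2-deficient 105K cells, a mouse renal tumor line. In the control group (sh-NC, n = 2 libraries) the tumor cells carried a non-targeting short hairpin RNA, and in the knockdown group (sh-B7-H3 (1), n = 2 libraries) a hairpin that targets Cd276, which encodes the immune checkpoint ligand B7-H3. All tumor cells thus lacked Tsc2, and the lines were pools of transduced, puromycin-selected cells. Only the tumor cells were modified, and the sequenced T cells were the hosts' own. The tumors of a group were pooled. The series description has each pool sorted together and loaded on duplicate lanes, while the study's methods name a single lane and its other text independent pooled samples. The 2 libraries of a group were read here as lanes of 1 pool, so p-values may measure technical spread only and do not speak of other mice.

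Integrins are heterodimers of an alpha and a beta chain, and the members fall into pairs. Itgal with Itgb2 forms LFA-1, the receptor for ICAM-1 that T cells use to bind antigen-presenting cells and target cells. Itga4 pairs with Itgb1 as VLA-4, which binds VCAM-1 and fibronectin, or with Itgb7 as the gut-homing integrin that binds MAdCAM-1. Itga1 with Itgb1 forms CD49a/CD29, a collagen receptor, and Itgae with Itgb7 forms CD103/beta7, which binds E-cadherin on epithelial cells. CD49a and CD103 are widely used as markers of T cells that stay in a tissue, and TGF-beta is known to induce Itgae. Cdh1 itself is mainly an epithelial protein, and some T and natural killer cells make it too.

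The comparison asked how tumor-infiltrating T cells differ when the tumor cells carry less B7-H3. Values are summed counts of unique molecular identifiers (UMIs, one per captured RNA molecule) per library and cell class, scaled to the total RNA UMIs of the same sum (CPM). T cells were called from RNA as Cd4 cells (a Cd4 UMI, none of Cd8a, Cd8b1 or Foxp3), Cd8 cells (at least 3 UMIs of Cd8a and Cd8b1, none of Cd4 or Foxp3) and Foxp3 cells (a Foxp3 UMI, none of Cd8a or Cd8b1), the last holding regulatory T cells. Each was split at 20 UMIs of Ccl5, a chemokine of effector and memory T cells, into Ccl5-high and Ccl5-low cells. Values of 4 libraries are given in the order control 1, control 2, knockdown 1, knockdown 2. A gene passed where the Benjamini-Hochberg adjusted p of edgeR's quasi-likelihood test over all genes tested was below 0.05.

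The libraries held 7030 to 12112 called cells with medians of 7242.5 to 9168 RNA UMIs, both lower in the knockdown libraries than in the controls. Any pair of libraries shared 17 to 35 cell barcodes. Cd276 had 0 UMIs in the T cells of every library, so these cells give no check of the knockdown, which was made in tumor cells. Summed myeloid markers rose from 13.5 and 13.7 to 67.5 and 67.9 CPM in Cd4 cells. In Cd8 cells they rose from 13.1 and 18.99 to 64.8 and 69.3 CPM. Of the tested markers 7 of 8 and 8 of 9 passed upward, where 42.4 and 47% of all genes passed in either direction. Some were low in both controls, such as C1qc in Cd4 cells (0.69 and 0.97 CPM) and Csf1r in Cd8 cells (0.36 and 0.12 CPM). The part of the myeloid markers in the results below was not tested. Of the natural killer list, Ncr1 was at 0 in every class, and Klre1 carried the sum. Klre1 was at 5.04 and 4.65 against 42.5 and 45.2 CPM in Cd4 cells and at 4.87 and 6.34 against 49.7 and 45.0 CPM in Cd8 cells. It also differed by Ccl5 level in Cd4 cells, at 79.8, 56.7, 80.3 and 92.5 CPM in Ccl5-high and 0.41, 0.29, 4.23 and 3.30 CPM in Ccl5-low cells. Klrb1c of the same list was not called in Cd8 cells, at 0.93 and 0.80 against 0.44 and 0.69 CPM (log2 change -0.66, adjusted p = 0.238). Of 2 tested B cell markers, 1 was called lower in Cd4 and 2 in Cd8 cells.

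Ccl5-high cells were the smaller part of both lineages in control tumors and about as many as Ccl5-low cells, or more, in knockdown tumors. Among Cd4 cells their share was 6.88 and 9.02% in the controls and 49.3 and 47.1% in the knockdown libraries. Among Cd8 cells it was 13.5 and 17.2% against 64.0 and 60.1%, and among Foxp3 cells 4.09 and 3.83% against 10.99 and 9.43%. The groups did not overlap in any lineage, and the differences of the means were 40.3, 46.7 and 6.25 percentage points. With 2 libraries against 2, the two-sided exact permutation test cannot go below p = 0.333, which it gave for each.

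**Figure D1:**
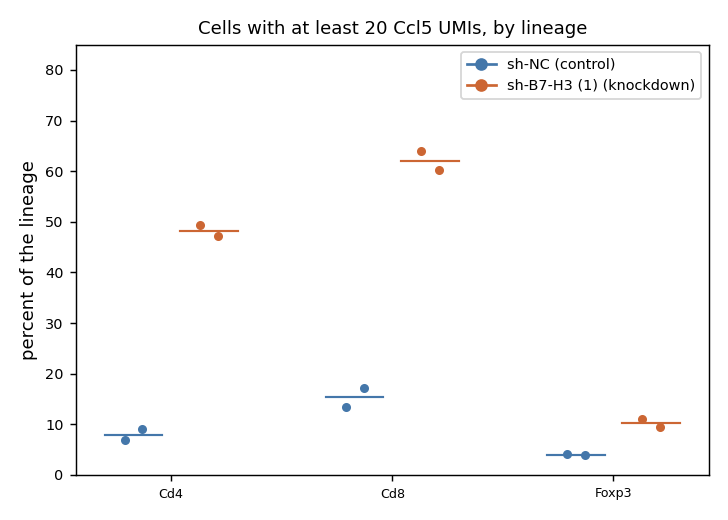
Share of Ccl5-high cells (at least 20 Ccl5 UMIs, percent of the cells of a lineage) in each library, with points for libraries and horizontal lines for group means. In all 3 lineages both knockdown libraries lie above both controls, with Cd8 cells at 64.0 and 60.1% against 13.5 and 17.2%.

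In the whole lineages, most of the adhesion genes rose with the knockdown and Itgb7 fell. Among Cd4 cells 7 of the 8 passed, 6 higher and 1 lower, where 42.4% of all 11004 genes tested passed. Among Cd8 cells 7 of 8 also passed, again 6 higher and 1 lower, where 47% of 11826 genes passed. The members' median log2 change was 0.72 in Cd4 and 0.93 in Cd8 cells, which is given as a description. The Cd4 median includes Itga1, Itgae and Cdh1, from which no expression is read in Cd4 cells, as given below. After the scaling of edgeR the median of all genes was near 0. The members' count is to be read against the large share of all genes that passed. In Cd4 cells Cdh1 came over the filter on low counts (1.13 CPM) in the knockdown libraries and in neither control, so it had to differ, and its call there supports nothing. Without the composition scaling of edgeR (TMM), the median of all genes in Cd4 cells moved from -0.016 to 0.085 on the log2 scale, and no member changed its direction.

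Itga4, the alpha chain of VLA-4, was measured at 106.8 and 107.5 CPM in control Cd4 cells and at 276.0 and 260.5 CPM in knockdown Cd4 cells. In Cd8 cells it was at 86.7 and 92.4 against 207.3 and 191.1 CPM. In both lineages the libraries of a group lay close together and the groups did not overlap. The log2 change was 1.22 (SE 0.048, adjusted p = 7.84e-20) in Cd4 and 1.05 (SE 0.042, adjusted p = 1.97e-17) in Cd8 cells. Its partner Itgb1 rose less in Cd4 cells, from 63.2 and 59.4 to 90.2 and 84.1 CPM, than in Cd8 cells, from 45.5 and 57.3 to 123.6 and 124.3 CPM. The log2 change was 0.40 (SE 0.067, adjusted p = 1.02e-05) in Cd4 and 1.18 (SE 0.062, adjusted p = 7.02e-15) in Cd8 cells.

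Itgb7, the other partner of Itga4, was the member that fell. It went from 158.6 and 155.1 to 82.5 and 86.7 CPM in Cd4 cells and from 155.6 and 156.6 to 92.7 and 95.2 CPM in Cd8 cells. The groups were far apart beside the spread of their libraries, and the log2 change was -0.99 (SE 0.057, adjusted p = 1.55e-15) in Cd4 and -0.83 (SE 0.041, adjusted p = 2.35e-15) in Cd8 cells. Thus the alpha 4 chain and 1 of its beta partners rose in the same sums in which the other partner fell.

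The LFA-1 chains rose together. Itgb2, shared with other leukocyte integrins, was at 124.2 and 126.8 CPM in control Cd4 cells against 240.0 and 222.0 CPM, and at 93.7 and 101.6 CPM in control Cd8 cells against 187.3 and 176.5 CPM. Itgal was at 89.3 and 98.1 against 134.4 and 120.9 CPM in Cd4 cells and at 76.8 and 81.7 against 136.1 and 121.9 CPM in Cd8 cells. Neither gene's groups overlapped. The log2 changes were 0.77 (SE 0.048, adjusted p = 1.18e-14) and 0.80 (SE 0.042, adjusted p = 7.09e-15) for Itgb2, and 0.34 (SE 0.060, adjusted p = 2.19e-05) and 0.60 (SE 0.047, adjusted p = 2.51e-11) for Itgal, in Cd4 and Cd8 cells.

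Itga1, the collagen-binding chain CD49a, was low in control T cells. It was at 0.76 and 1.14 against 4.63 and 6.04 CPM in Cd4 cells and at 5.69 and 8.34 against 33.7 and 27.4 CPM in Cd8 cells. The log2 change was 2.40 (SE 0.35, adjusted p = 1.06e-06) in Cd4 and 2.02 (SE 0.12, adjusted p = 1.55e-13) in Cd8 cells. Empty droplets, barcodes with too few UMIs to be cells, show the free RNA of each library and held Itga1 at 4.80 and 8.71 against 15.8 and 13.9 CPM. Itga1 in Cd4 cells was below that level in every library, so no expression is read from it there. In Cd8 cells it was above it in 3 of 4 libraries and below it in control library 2. In the annotation Itga1 overlaps Pelo and Gm49395 on the same strand, and reads from the overlaps cannot be assigned among them with certainty.

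Cdh1 had the largest fold change of the 8 in Cd8 cells, followed by Itga1. Cdh1 was at 0.61 and 0.79 against 5.89 and 6.20 CPM in Cd4 cells and at 5.51 and 6.50 against 27.0 and 27.6 CPM in Cd8 cells. The log2 change was 2.10 (SE 0.10, adjusted p = 2.25e-15) in Cd8 cells, and the fitted 3.00 in Cd4 cells is no test, for the reason given above. Empty droplets held Cdh1 at 4.80 and 3.53 against 7.88 and 6.95 CPM. The Cd4 levels were thus below those of empty droplets in every library, so no expression is read from them, while the Cd8 levels were above them. A list of tumor and stroma genes, summed as well, was higher in the knockdown libraries too, at 4.59 and 5.62 against 13.9 and 12.1 CPM in all Cd4 cells and at 6.16 and 7.18 against 9.70 and 10.7 CPM in all Cd8 cells.

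Most of that sum was Epcam, an epithelial adhesion molecule. Epcam was at 4.28 and 5.00 against 13.3 and 10.5 CPM in Cd4 cells (log2 change 1.24, SE 0.21, adjusted p = 9.18e-06) and at 6.02 and 6.86 against 9.05 and 9.77 CPM in Cd8 cells (0.46, SE 0.13, adjusted p = 0.00606). Within Ccl5-high Cd8 cells the summed list was lower in the knockdown libraries, at 26.8 and 24.0 against 15.4 and 18.1 CPM, and there Col3a1 and Sparc were at 0 in every library. Epcam also differed among T cell classes of the same libraries. It was at 25.4, 20.0, 36.5 and 27.5 CPM in Ccl5-low Foxp3 cells and at 3.57, 4.09, 6.35 and 2.10 CPM in Ccl5-low Cd4 cells. The part of the listed genes in the change of Cdh1 was not tested.

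Itgae, the alpha chain of CD103, was the member that did not pass in either lineage. It was at 2.37 and 3.51 against 5.68 and 4.45 CPM in Cd4 cells (log2 change 0.67, SE 0.29, adjusted p = 0.0602). In Cd8 cells it was at 36.4 and 35.8 against 36.8 and 40.8 CPM (log2 change 0.02, SE 0.064, adjusted p = 0.824). In Cd4 cells these levels were below the 27.8 and 30.6 against 40.8 and 31.3 CPM of empty droplets in every library, so no expression is read from them. In Cd8 cells the means of the groups differed by less than the libraries of the knockdown group did. The Cd8 level was above that of empty droplets except in knockdown library 1 (36.8 against 40.8 CPM).

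**Figure D2:**
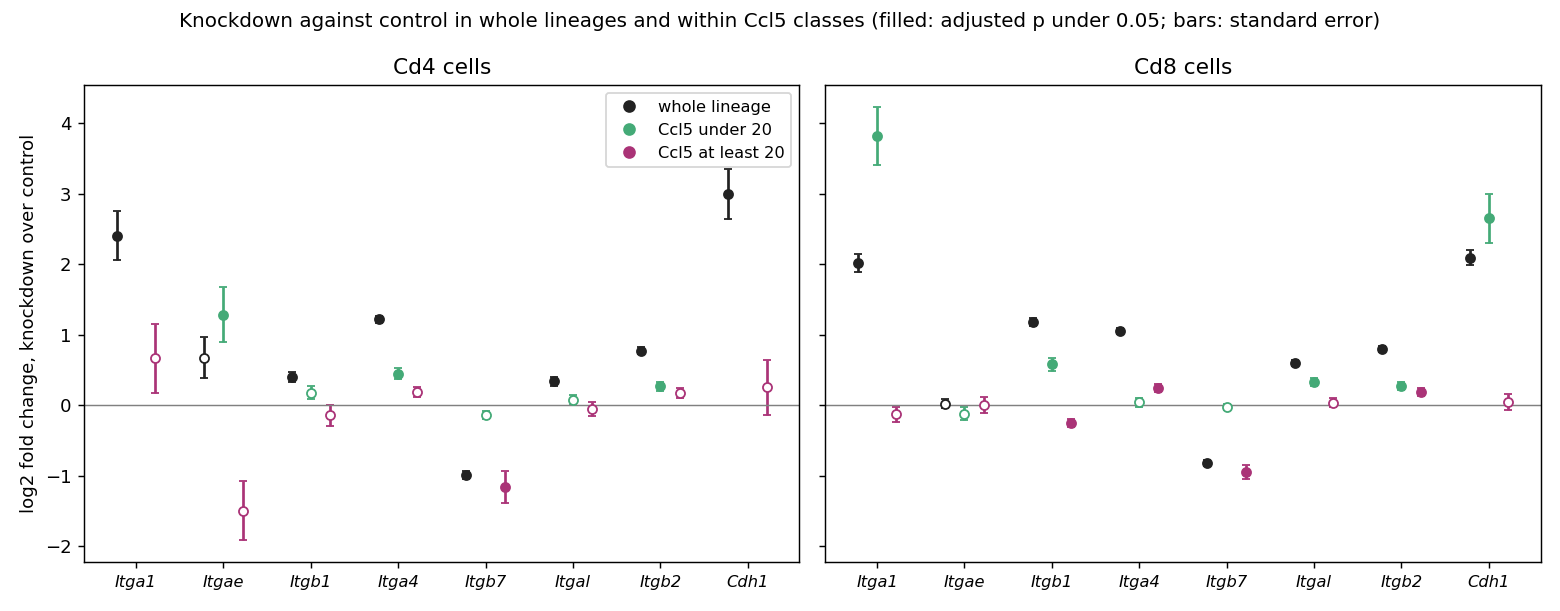
Log2 change of each member with the knockdown (knockdown against control, points with bars of 1 SE from edgeR, filled where the adjusted p is below 0.05) in all, Ccl5-low and Ccl5-high Cd4 and Cd8 cells. Itga1 and Cdh1 lie at 2.02 and 2.10 in all Cd8 cells and at 2.40 and 3.00 in all Cd4 cells, where their levels were below those of empty droplets, while in Ccl5-high Cd8 cells Itga1 and Cdh1 lay near 0 and Itgb7 lay at -0.95.

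The difference of the knockdown effect between Cd8 and Cd4 cells was tested in a joint fit of both lineages, in which 5.7% of 11818 genes passed. Of the 8 members 2 passed. Itgb1 changed by 0.79 more on the log2 scale in Cd8 than in Cd4 cells (SE 0.082, adjusted p = 1.74e-13), and Itgal by 0.26 more (SE 0.066, adjusted p = 0.0044). The difference for Itgal no longer passed without control library 2 (adjusted p = 0.069), without knockdown library 1 (0.061) or without knockdown library 2 (0.064), nor with DESeq2 (0.99). For the others the test gave no call, with Itga4 at -0.17 (adjusted p = 0.0608) and Itgb7 at 0.16 (adjusted p = 0.166).

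Ccl5-high and Ccl5-low cells differed in most members. Within each library Ccl5-high cells were compared with Ccl5-low cells, in a fit with the library as a block over both groups. Of the 8 members 7 passed in Cd4 cells, where 49.5% of 9859 genes passed, and 8 of 8 in Cd8 cells, where 54.7% of 10615 genes passed. Itga1 and Cdh1 came over the filter on low counts (3.74 CPM in Cd4 and 1.75 CPM in Cd8 cells) in no control library of the Ccl5-low class, and in Cd4 cells in no Ccl5-low library at all, so they were tested through the class where they are high and these counts support nothing. Itga4, Itgb1, Itgal and Itgb2 were higher in Ccl5-high cells in both lineages, and Itgb7 was lower.

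In Cd8 cells the levels of Itga1 and Cdh1 were far higher in the Ccl5-high than in the Ccl5-low class, which is given as a description. In control tumors Itga1 was at 52.2 and 62.5 CPM in Ccl5-high and at 0.28 and 0.37 CPM in Ccl5-low Cd8 cells. Cdh1 was at 47.4 and 44.5 against 0.64 and 0.92 CPM in the same classes. In the knockdown libraries Itga1 was at 55.5 and 49.1 against 5.04 and 4.00 CPM, and Cdh1 at 43.2 and 49.7 against 5.79 and 3.84 CPM. No library's Ccl5-low level reached its Ccl5-high level. In Cd4 cells the levels were at most 10.2 CPM for Itga1 and 10.5 CPM for Cdh1 in either class.

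Itgb1 in Cd8 cells was at 210.9, 265.8, 194.0 and 201.0 CPM in the Ccl5-high and at 26.3, 26.7, 31.2 and 41.6 CPM in the Ccl5-low class of the 4 libraries. The log2 difference was 2.53 (SE 0.14, adjusted p = 1.34e-07), against 0.70 (SE 0.12, adjusted p = 0.000344) in Cd4 cells. Itga4 lay 1.83 (SE 0.074, adjusted p = 1.55e-08) higher in Ccl5-high Cd8 and 1.72 (SE 0.081, adjusted p = 5.23e-09) higher in Ccl5-high Cd4 cells. In no library did the level of either gene in a Ccl5-low class reach that of its Ccl5-high class.

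Itgb2 lay 1.17 (SE 0.048, adjusted p = 1.60e-08) higher in Ccl5-high Cd8 and 1.09 (SE 0.066, adjusted p = 3.35e-08) higher in Ccl5-high Cd4 cells. For Itgal the differences were 0.86 (SE 0.068, adjusted p = 1.60e-06) and 0.65 (SE 0.072, adjusted p = 8.83e-06). The LFA-1 chains were thus measured in every class of both lineages.

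Itgb7 ran the other way. In Cd8 cells it was at 84.5, 83.7, 43.0 and 43.0 CPM in Ccl5-high and at 163.9, 167.3, 157.9 and 151.6 CPM in Ccl5-low cells. In Cd4 cells it was at 52.3, 37.4, 20.1 and 17.6 CPM in Ccl5-high and at 165.2, 165.0, 145.6 and 147.7 CPM in Ccl5-low cells. The log2 difference was -1.72 (SE 0.15, adjusted p = 3.79e-06) in Cd8 and -2.82 (SE 0.17, adjusted p = 2.64e-08) in Cd4 cells. Itgae differed little by Ccl5 level in Cd8 cells (log2 difference 0.22, SE 0.074, adjusted p = 0.0248), and in Cd4 cells it was not called (1.26, SE 0.52, adjusted p = 0.0618). The Cd8 call for Itgae was lost without control library 2 (adjusted p = 0.061), without knockdown library 1 (0.11) or without knockdown library 2 (0.063).

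**Figure D3:**
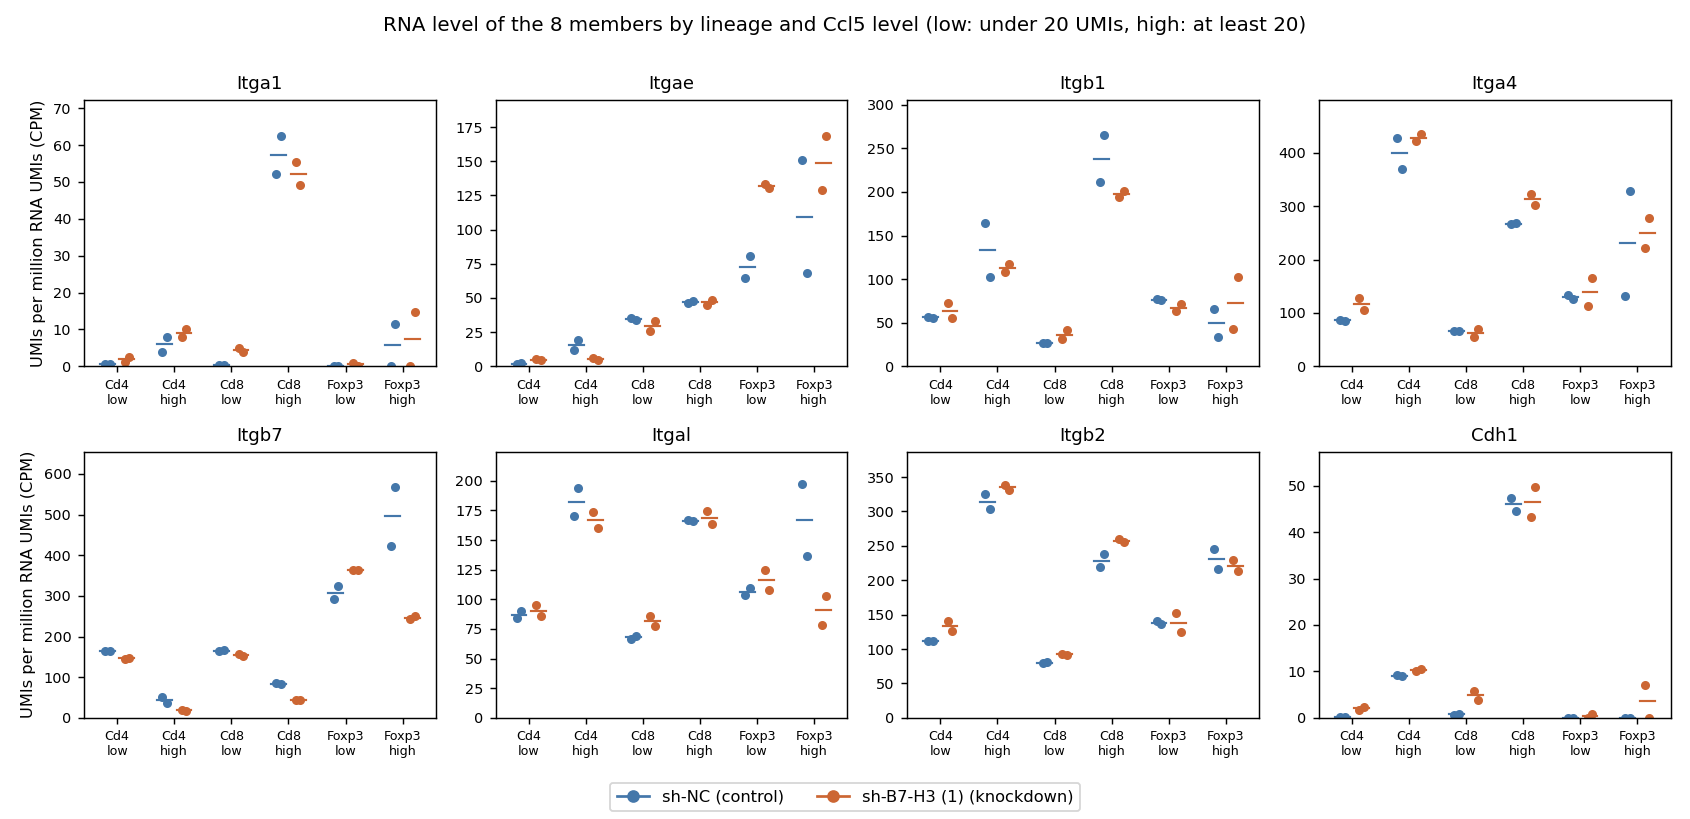
Level of each of the 8 genes (CPM of the summed cells, linear axes from 0) in Ccl5-low and Ccl5-high Cd4, Cd8 and Foxp3 cells, with 1 point per library and horizontal lines for group means. Itga1 and Cdh1 stand high in Ccl5-high Cd8 cells, at 44.5 CPM or more in controls, Itgb7 is lower in Ccl5-high than in Ccl5-low Cd4 and Cd8 cells, and Itgae is highest in Foxp3 cells.

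The promoters of the alpha 4 and beta 7 chains and of Itga1 are printed because Itga4 and Itgb7 moved in opposite directions with the Ccl5 level and the knockdown, while Itga1 moved with Itga4. A promoter entry was matched for 4 of the 8 genes (Itga1, Itga4, Itgb1 and Itgb7). The sequences are the 250 bases before each start in RefSeq on GRCm38.p6, on the gene's strand and 5′ to 3′, at chr13:115101965-115102214 (minus strand) for Itga1, chr2:79255176-79255425 (plus strand) for Itga4 and chr15:102231936-102232185 (minus strand) for Itgb7. Capitals mark matches, on either strand, to the RUNX core TGTGGT, a GC box GGGCGG, the T-box core TCACAC and the KLF motif CCACACCC.
Itga1: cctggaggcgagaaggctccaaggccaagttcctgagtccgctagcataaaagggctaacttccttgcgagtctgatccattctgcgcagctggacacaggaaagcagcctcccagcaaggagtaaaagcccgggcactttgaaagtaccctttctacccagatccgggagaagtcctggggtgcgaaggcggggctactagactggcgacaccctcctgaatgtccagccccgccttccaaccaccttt
Itga4: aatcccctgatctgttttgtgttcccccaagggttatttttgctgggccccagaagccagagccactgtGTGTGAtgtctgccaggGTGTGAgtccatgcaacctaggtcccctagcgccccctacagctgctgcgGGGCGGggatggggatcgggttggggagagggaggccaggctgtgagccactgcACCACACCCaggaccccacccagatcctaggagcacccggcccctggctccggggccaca
Itgb7: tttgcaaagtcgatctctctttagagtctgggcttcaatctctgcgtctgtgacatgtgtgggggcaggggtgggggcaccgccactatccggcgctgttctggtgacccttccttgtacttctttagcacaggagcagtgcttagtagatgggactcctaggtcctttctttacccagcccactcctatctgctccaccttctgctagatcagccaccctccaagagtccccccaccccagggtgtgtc

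The Itga4 promoter held all 4 motifs, the RUNX core and the KLF motif in overlapping letters near its 3′ end and the T-box core at 2 places. Neither the Itga1 nor the Itgb7 promoter held any of them, and Itgb1 held a GC box. Of 32817 promoters of the same length, the RUNX core was in 14.0%, the GC box in 32.7%, the T-box core in 12.3% and the KLF motif in 3.19%. These are matches of letters and no measured binding.

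On GRCm38 Itga4 lies at chr2:79255426-79333123 on the plus strand and Itgb7 at chr15:102215995-102231944 on the minus strand. Itga1 lies at chr13:114953096-115101964 (minus), Itgb1 at chr8:128685654-128733200 (plus) and Itgae at chr11:73090583-73147446 (plus). Itgal lies at chr7:127296260-127335138, Itgb2 at chr10:77530252-77565708 and Cdh1 at chr8:106603351-106670246, all on the plus strand. Itgae overlaps Haspin and Itga4 overlaps Cerkl, each on the other strand.

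Within Ccl5-high cells the knockdown effect was smaller for most members. In Ccl5-high Cd8 cells 4 of 8 members passed, where 14.4% of 9812 genes did. Itgb7 fell from 84.5 and 83.7 to 43.0 and 43.0 CPM (log2 change -0.95, SE 0.098, adjusted p = 1.22e-16). Itga4 rose from 266.3 and 268.2 to 323.3 and 303.0 CPM (log2 change 0.24, SE 0.054, adjusted p = 0.000213).

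The other calls of this class were each lost without any 1 of 3 libraries. Itgb1 was at 210.9 and 265.8 against 194.0 and 201.0 CPM (log2 change -0.26, SE 0.060, adjusted p = 0.000443), and it no longer passed without control library 2 (-0.08, adjusted p = 0.61), without knockdown library 1 (-0.23, adjusted p = 0.07) or without knockdown library 2 (-0.28, adjusted p = 0.053). Itgb2 was at 218.5 and 238.7 against 259.3 and 255.5 CPM (log2 change 0.19, SE 0.057, adjusted p = 0.0114), and it was lost without control library 1 (0.14, adjusted p = 0.23), without knockdown library 1 (0.18, adjusted p = 0.11) or without knockdown library 2 (0.20, adjusted p = 0.082). Both were lost with DESeq2, and with cells thinned to 2000 UMIs Itgb7 alone still passed.

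Itga1 and Cdh1, which had the largest fold changes in all Cd8 cells, gave no call within the Ccl5-high class. Itga1 was at 52.2 and 62.5 CPM against 55.5 and 49.1 CPM, and the groups overlapped (log2 change -0.13, SE 0.11, adjusted p = 0.487). Cdh1 was at 47.4 and 44.5 against 43.2 and 49.7 CPM, also overlapping (log2 change 0.05, SE 0.11, adjusted p = 0.86). Itgae and Itgal were not called either, at log2 changes of 0.01 (adjusted p = 0.98) and 0.04 (adjusted p = 0.786).

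In Ccl5-high Cd4 cells, where 1.79% of 8455 genes passed, 1 of 8 members did. Itgb7 was at 52.3 and 37.4 against 20.1 and 17.6 CPM (log2 change -1.16, SE 0.23, adjusted p = 0.0199). That call did not hold without control library 1 (-0.94, adjusted p = 0.13). Itgae was at 11.8 and 19.3 against 6.27 and 4.41 CPM in this class, on 9, 17, 15 and 13 UMIs, and was not called (log2 change -1.50, SE 0.42, adjusted p = 0.109). Itga4 was at 428.9 and 369.7 against 422.8 and 434.9 CPM, and the groups overlapped (adjusted p = 0.296).

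In Ccl5-low Cd8 cells 5 of 8 members passed, all upward, where 10.6% of 10972 genes passed in either direction. Itga1 was at 0.28 and 0.37 CPM (7 and 8 UMIs) against 5.04 and 4.00 CPM (20 and 25 UMIs). Cdh1 was at 0.64 and 0.92 against 5.79 and 3.84 CPM (log2 change 2.65, SE 0.35, adjusted p = 8.40e-09). Itga1 came over the filter on low counts (0.712 CPM) in the knockdown libraries and in neither control, and Cdh1 in 1 of 2 controls. Itga1 was thus tested through the group where it is high and had to differ, and its call supports nothing. The empty droplets of every library held more of both genes than these cells, Itga1 at 4.80 and 8.71 against 15.8 and 13.9 CPM and Cdh1 at 4.80 and 3.53 against 7.88 and 6.95 CPM. No expression in this class is read from either, and the part of free RNA in the difference was not tested.

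Itgb1, Itgal and Itgb2 rose by 0.58 (SE 0.092, adjusted p = 9.57e-07), 0.33 (SE 0.061, adjusted p = 2.56e-05) and 0.27 (SE 0.056, adjusted p = 0.000167) on the log2 scale in this class. The part of free RNA in these changes was not tested. The call of Itgb1 was lost without knockdown library 2 (0.31, adjusted p = 0.22). Itga4 and Itgb7 were not called, at 65.8 and 66.5 against 55.2 and 70.5 CPM and at 163.9 and 167.3 against 157.9 and 151.6 CPM. Itga4 overlapped between the groups and Itgb7 did not.

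The Ccl5-low class was not the same in both groups. The share of its Cd8 cells without any Ccl5 UMI was 80.3 and 76.7% in controls and 31.8 and 23.0% in knockdown libraries. Empty droplets held Ccl5 at 1222 and 1457 against 3930 and 3765 CPM. With only cells under 5 Ccl5 UMIs as the low class, a limit chosen after the data were seen, Itgal (0.29, adjusted p = 0.0022) and Itgb2 (0.21, adjusted p = 0.0214) still passed in Cd8 cells, and Itgb1 did not (0.20, adjusted p = 0.311). Summed myeloid markers also differed in the Ccl5-low class, at 11.4 and 14.3 against 49.87 and 50.05 CPM, and in Ccl5-high Cd8 cells, at 27.1 and 51.0 against 76.3 and 87.2 CPM. Their part was not tested.

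In Ccl5-low Cd4 cells, where 9.36% of 10326 genes passed, 3 of 6 tested members passed, all upward. Itga4 rose from 86.8 and 85.5 to 127.4 and 106.3 CPM (log2 change 0.45, SE 0.074, adjusted p = 6.16e-05). Itgb2 (0.27, adjusted p = 0.00604) and Itgae (1.29, adjusted p = 0.0306, on 22 and 23 against 12 and 15 UMIs) were weaker calls: Itgb2 was lost without control library 2 (adjusted p = 0.050) and knockdown library 1 (0.14), and Itgae without any 1 of the 4 libraries. Itgae, at 1.79 and 2.19 against 5.08 and 4.49 CPM, was below the empty droplets in every library, and no expression is read from it. With the limit of 5 Ccl5 UMIs none of the 3 passed, Itga4 being at 0.20 (adjusted p = 0.14). Itga1 and Cdh1 fell under the filter on low counts in this class.

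Whether the knockdown effect differed between Ccl5-high and Ccl5-low cells was tested as an interaction. In Cd8 cells 5 of 8 members passed, where 4.83% of 10615 genes did. Itga1 and Cdh1 were tested there through the Ccl5-high and knockdown sums, as neither Ccl5-low control came over the filter, so their values are given as a description. The effect in Ccl5-high cells was lower than that in Ccl5-low cells by 0.94 for Itgb7 (log2 difference -0.94, SE 0.10, adjusted p = 4.99e-10) and by 0.83 for Itgb1 (-0.83, SE 0.12, adjusted p = 4.11e-07). The fitted differences were -3.95 for Itga1 and -2.60 for Cdh1. Itgal gave -0.31 (SE 0.090, adjusted p = 0.0287), which was lost without any 1 of the 4 libraries. For Itga1 and Cdh1 the difference comes with the low counts in Ccl5-low cells given above, whereas Itgb7 was at 43.0 CPM or more in every class of Cd8 cells. With cells thinned to 2000 UMIs, Itgb7 (-0.57, adjusted p = 0.17) no longer passed this test.

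In Cd4 cells 3 of 8 passed, where 3.48% of 9859 genes did. The fitted differences were -3.97 for Cdh1, -2.76 for Itgae and -1.02 for Itgb7 (SE 0.24, adjusted p = 0.00183). Neither Ccl5-low group came over the filter for Cdh1, nor the Ccl5-low controls for Itgae, so both were tested through other sums and are given as a description. Itgae was below the empty droplets in both Ccl5 classes of Cd4 cells in every library. Cdh1 in Ccl5-low Cd4 cells rested on 1, 1, 4 and 8 UMIs, and its call was lost without any 1 of the 4 libraries. Itgae was lost without control library 2 (adjusted p = 0.084) or knockdown library 2 (0.13), and Itgb7 without control library 1 (adjusted p = 0.19) or knockdown library 2 (0.11).

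The share of Ccl5-high cells and the levels within the classes both enter the change in a whole lineage. If each Ccl5 class had kept its control level and only the shares had been those of the knockdown libraries, all Cd8 cells would have had Itga1 at 31.3 CPM, against 6.95 CPM measured in the pooled controls and 30.5 CPM in the pooled knockdown libraries. For Cdh1 the same values were 25.3, 6.03 and 27.4 CPM, and for Itga4 175, 89.5 and 199 CPM. For Itgb7 they were 121, 156 and 94.1 CPM, so the measured level was below the one given by the shares alone. In Cd4 cells Itgb7 gave 107, 157 and 84.5 CPM and Itga4 238, 107 and 268 CPM. The calculation is a description of sums and carries no test, and Ccl5-high cells supplied 11.6% of the RNA UMIs of control Cd8 cells and 54.3% of those of knockdown Cd8 cells.

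In Foxp3 cells Itgae, the alpha E chain, rose with the knockdown. Whether its change differed from that in Cd4 or Cd8 cells was not tested. In all Foxp3 cells 1 of 6 tested members passed, where 6.04% of 8742 genes did. Itgae was at 68.3 and 80.2 CPM in the controls and at 132.8 and 134.1 CPM in the knockdown libraries, with no overlap (log2 change 0.84, SE 0.12, adjusted p = 1.74e-05). In Ccl5-low Foxp3 cells, where 4.38% of 8674 genes passed, it was again the 1 of 6 that did, at 64.7 and 80.6 against 133.4 and 130.1 CPM (log2 change 0.85, SE 0.13, adjusted p = 0.000101). It passed in both fits under every alternative run, the lower Ccl5 limit included (0.79, adjusted p = 0.000673). The Ccl5-low Foxp3 class was not the same in both groups, however. Of its cells 65.6 and 64.4% had no Ccl5 UMI in controls, against 26.5 and 18.8% in knockdown libraries. Ccr7 (log2 change -1.02) was lower and Cxcr6 (1.94) higher there with the knockdown. The part of this make-up in the change of Itgae was not tested.

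Its partner Itgb7 was at 296.8 and 333.8 against 348.6 and 352.7 CPM in all Foxp3 cells, which gave no call (log2 change 0.15, SE 0.081, adjusted p = 0.34). Itgb1, Itga4, Itgal and Itgb2 were not called, with log2 changes from -0.16 to 0.19. Ccl5-high Foxp3 cells numbered 13 to 21 per library, too few for a test here. Itga1 and Cdh1 had 0 UMIs in the Ccl5-low Foxp3 cells of both controls, which allows up to 1.23 and 1.28 CPM by counting error alone. Summed myeloid markers in Ccl5-low Foxp3 cells were 22.9 and 28.6 against 86.4 and 85.9 CPM. Empty droplets held Itgae at 27.8 and 30.6 against 40.8 and 31.3 CPM, below the Foxp3 level in every library.

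At a fixed depth of 1000 UMIs per cell, the share of Ccl5-low Foxp3 cells with an Itgae UMI was 6.99 and 8.29% in the controls and 12.5 and 12.5% in the knockdown libraries. In Cd8 cells the shares were 3.68 and 3.70% against 3.70 and 4.22%. For Itga1 they were 0.772 and 1.11% of all Cd8 cells against 3.59 and 2.99%, but 5.45 and 6.29% of Ccl5-high Cd8 cells against 5.26 and 4.63%. For Itgb7 they were 6.97 and 6.75% of Ccl5-high Cd8 cells against 3.79 and 4.01%.

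At full depth the shares were 22.2 and 27.3% against 35.3 and 33.3% for Itgae in Ccl5-low Foxp3 cells, 3.13 and 4.59% against 13.9 and 12.7% for Itga1 in all Cd8 cells and 31.7 and 31.1% against 19.4 and 20.2% for Itgb7 in Ccl5-high Cd8 cells. For Itgae in all Cd8 cells the full-depth shares ran the other way than the thinned ones, at 22.1 and 23.0% against 16.1 and 19.2%, so no order is read from them. Thinning to 1000 UMIs left out 3 to 6 Cd8 cells and 0 to 4 Ccl5-low Foxp3 cells per library. The groups did not overlap in the thinned shares, apart from Itgae in Cd8 cells, where they met at the digits printed. For the thinned shares 0.333 is again the smallest two-sided p of an exact permutation test. Cd4 cells with naive-like RNA, which should lack Itga1, Itgae and Cdh1, had them in at most 0.053% of cells at the same depth. Their median depths were 7899, 8457, 7087.5 and 7188 UMIs.

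Lineages were compared within the Ccl5 classes, again with the library as a block. In Ccl5-high cells 7 of 8 members differed between Cd8 and Cd4 cells, where 18% of 9789 genes did. Itga1 was at 52.2, 62.5, 55.5 and 49.1 CPM in Ccl5-high Cd8 cells and at 3.92, 7.94, 7.95 and 10.2 CPM in Ccl5-high Cd4 cells (log2 difference 2.81, SE 0.16, adjusted p = 7.19e-11). Cdh1 was at 43.2 to 49.7 CPM in the former and at 9.07 to 10.5 CPM in the latter (2.36, SE 0.14, adjusted p = 1.40e-10). Itgae (2.70, adjusted p = 6.51e-09), Itgb7 (1.23, adjusted p = 7.42e-08) and Itgb1 (0.98, adjusted p = 1.39e-07) were also higher in Ccl5-high Cd8 cells, whereas Itga4 (-0.36, adjusted p = 0.000308) and Itgb2 (-0.26, adjusted p = 0.00487) were lower.

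In Ccl5-low cells 7 of 8 differed, where 32.5% of 11001 genes did. Itga1 and Cdh1 came over the filter there in no control library of either lineage. They were thus tested through the knockdown sums, and what they add to this count supports nothing. Itgae was at 35.3, 34.0, 25.9 and 32.9 CPM in Ccl5-low Cd8 and at 1.79, 2.19, 5.08 and 4.49 CPM in Ccl5-low Cd4 cells (log2 difference 3.86, SE 0.17, adjusted p = 8.01e-13). Itgb1 had the other sign than in Ccl5-high cells, at -0.83 (SE 0.083, adjusted p = 1.99e-07). Between Foxp3 and Cd4 cells of the Ccl5-low class, 2 of 6 tested members differed, where 36.9% of 9548 genes did. These were the chains of CD103/beta7, Itgae at 4.76 and Itgb7 at 0.81 (SE 0.072, adjusted p = 2.09e-08), both higher in Foxp3 cells. Itgae came over that filter in no Ccl5-low Cd4 control, so it was tested through the class where it is high and its value is a description.

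Among the 5 classes with at least 30 cells in every library, the order of the levels differed from gene to gene. In Ccl5-low cells Itgae stood highest in Foxp3, then in Cd8 and then in Cd4 cells, with no overlap of libraries between neighbours. Foxp3 cells lay above the empty droplets in every library, Ccl5-low Cd8 cells above them in 3 of 4 and below them in knockdown library 1 (25.9 against 40.8 CPM), and Ccl5-low Cd4 cells below them in all 4. Itga1 stood highest in Ccl5-high Cd8 cells, followed by Ccl5-high Cd4 cells, whose range of 3.92 to 10.2 CPM overlapped that of Ccl5-low Cd8 cells, 0.28 to 5.04 CPM. In each library the Itga1 level of Ccl5-high Cd4 cells was below that of the empty droplets, so no expression is read from it. Itga4 stood highest in Ccl5-high Cd4 cells at 369.7 to 434.9 CPM, followed by Ccl5-high Cd8 cells at 266.3 to 323.3 CPM.

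Itgb7 stood highest in Ccl5-low Foxp3 cells at 291.3 to 364.5 CPM. Ccl5-low Cd8 and Ccl5-low Cd4 cells followed at 151.6 to 167.3 and 145.6 to 165.2 CPM, which overlapped, and Ccl5-high Cd8 and Cd4 cells were lowest at 43.0 to 84.5 and 17.6 to 52.3 CPM, again overlapping. Itgb1 stood highest in Ccl5-high Cd8 cells, then in Ccl5-high Cd4 cells at 102.1 to 164.8 CPM, while Ccl5-low Foxp3 and Cd4 cells overlapped at 63.3 to 77.03 and 55.1 to 72.4 CPM.

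Itgb2 stood highest in Ccl5-high Cd4 cells at 302.8 to 338.8 CPM, followed by Ccl5-high Cd8 cells at 218.5 to 259.3 CPM and, overlapping each other, Ccl5-low Foxp3 and Cd4 cells. Itgal in Ccl5-high Cd4 and Cd8 cells overlapped, at 160.3 to 193.9 and 163.3 to 174.4 CPM, above Ccl5-low Foxp3 cells at 103.3 to 124.8 CPM. The lowest class of Itgb1, Itgb2 and Itgal was that of Ccl5-low Cd8 cells. Cdh1 stood highest in Ccl5-high Cd8 cells, then in Ccl5-high Cd4 cells, and its Ccl5-low Cd8 and Cd4 cells overlapped below them. Unlike in all Cd4 cells, the Cdh1 level of Ccl5-high Cd4 cells was above that of the empty droplets in each library, though on few UMIs.

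The chains that pair on the surface were also looked at in the same cells, each thinned to 2000 UMIs. Among Ccl5-low Foxp3 cells with an Itgae UMI, 56.2, 61.6, 59.9 and 58.9% held an Itgb7 UMI, against 40.2, 42.9, 45.3 and 48.1% of those without. In Ccl5-low Cd8 cells the same shares were 28.4, 29.8, 24.9 and 29.3% against 27.5, 28.1, 26.7 and 25.3%, higher in 3 of 4 libraries. Among Ccl5-high Cd8 cells with an Itga1 UMI, 38.3, 42.5, 34.2 and 35.4% held an Itgb1 UMI against 28.8, 31.9, 27.8 and 27.8% of the others.

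The residency markers met in the same Ccl5-high Cd8 cells as well. Of those with an Itgae UMI, 18.8, 22.8, 20.7 and 15.8% held an Itga1 UMI against 9.31, 10.5, 8.61 and 7.77% of the others. Cdh1 was in 16.7, 17.5, 12.1 and 14.2% of the cells with Itgae against 9.07, 8.22, 8.44 and 9.17%. Each pair was higher in 4 of 4 libraries. Cells are not replicates, so these shares carry no p.

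Antibody tags of 6 of the proteins were counted in the same cells, CD49a, CD103, CD29, CD49d, integrin beta 7 and CD11a, the products of Itga1, Itgae, Itgb1, Itga4, Itgb7 and Itgal. The panel had 197 named tags, with none for CD18 or E-cadherin among them. Tag counts were fitted as the genes were, and log2 changes here are relative to the other tags. In Cd4 cells 2 of 6 passed, where 57.9% of all tags did, CD49d at 0.39 (SE 0.052, adjusted p = 0.00685) and CD49a at 0.21 (SE 0.047, adjusted p = 0.0277), both higher with the knockdown. The CD49a call was lost without control library 1 (adjusted p = 0.07), knockdown library 1 (0.14) or knockdown library 2 (0.066). In Cd8 cells all 6 passed, where 66% of tags did.

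CD49d (0.46, SE 0.051, adjusted p = 0.00362), CD49a (0.42, SE 0.050, adjusted p = 0.00456) and CD29 (0.27, SE 0.082, adjusted p = 0.0487) were higher in knockdown Cd8 cells, as their RNAs were. CD103 (-0.18, adjusted p = 0.00456), integrin beta 7 (-0.17, adjusted p = 0.0069) and CD11a (-0.08, adjusted p = 0.0368) were lower on this scale. The lower values turned around on another scale: as a plain share of all tag UMIs, per 10000, CD103 was at 13.3 and 12.8 against 15.2 and 15.5, CD11a at 14.6 and 14.4 against 18.2 and 18.4 and integrin beta 7 at 22.8 and 22.3 against 26.6 and 26.7. CD49d and CD49a also passed when scaled to the isotype tags, control antibodies without a mouse target (0.37, adjusted p = 0.0132, and 0.32, adjusted p = 0.0221), and CD29 did not (0.18, adjusted p = 0.197). The CD29 call was also lost without control library 1 (0.061), knockdown library 1 (0.188) or knockdown library 2 (0.111), and that of CD11a without any 1 of the 4 libraries. In Cd4 cells CD49a did not pass with isotype scaling (0.11, adjusted p = 0.198), and CD49d did (0.30, adjusted p = 0.00796).

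The choice of scale moved the balance of all tags. In Cd4 cells 58 tags were called higher and 56 lower, against 38 and 76 with isotype scaling, and in Cd8 cells 63 and 67 against 33 and 75. In Foxp3 cells the split was 34 and 36 against 16 and 68. In Ccl5-high Cd8 cells it was 50 and 48 against 22 and 76, and in Ccl5-low Cd8 cells 61 and 60 against 20 and 94. For Ccl5-high against Ccl5-low cells it was 30 and 23 against 35 and 20 in Cd4 and 30 and 21 against 42 and 18 in Cd8 cells.

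In Ccl5-high Cd8 cells CD29 was the 1 of 6 tags that passed, where 49.7% of tags did, and it was lower with the knockdown. It was at 35.6 and 41.4 times the mean isotype tag in the controls and at 24.6 and 21.6 times in the knockdown libraries, without overlap. Relative to all tags its log2 change was -0.57 (SE 0.085, adjusted p = 0.00898), and with isotype scaling -0.74 (adjusted p = 0.00548). It did not pass without knockdown library 1 (adjusted p = 0.059) or without knockdown library 2 (0.074). The RNA of Itgb1 had the same sign in this class.

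In Ccl5-low Cd8 cells 2 of 6 passed, where 61.4% did, CD49a at 0.32 (SE 0.050, adjusted p = 0.00837) and CD49d at 0.16 (SE 0.033, adjusted p = 0.0164). CD49a was at 4.25 and 4.37 against 5.19 and 4.60 times the mean isotype tag there, and with isotype scaling neither passed (0.18, adjusted p = 0.076, for CD49a and 0.02, adjusted p = 0.688, for CD49d). The other 4 tags, with no call on the main scale, all passed as lower with isotype scaling, CD11a at -0.23 (adjusted p = 0.00461), CD29 at -0.18 (0.0156), CD103 at -0.17 (0.0117) and integrin beta 7 at -0.17 (0.0476).

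In Foxp3 cells 4 of 6 tags passed, where 35.5% did (70 of 197 tags, which fell to 36 without knockdown library 1 and 38 without knockdown library 2). CD103 was higher with the knockdown (0.41, SE 0.11, adjusted p = 0.0423), as its RNA Itgae was. In Ccl5-low Foxp3 cells it was at 4.74 and 5.94 against 6.46 and 6.55 times the mean isotype tag. The CD103 call was lost with isotype scaling (0.25, adjusted p = 0.12), without knockdown library 1 (adjusted p = 0.13) and without knockdown library 2 (0.18). CD49a (0.26) and integrin beta 7 (0.26) were also higher and CD29 lower (-0.26), of which CD29 passed with isotype scaling too (-0.42, adjusted p = 0.00621). The calls of CD29 and integrin beta 7 were lost without any 1 of the 4 libraries, and that of CD49a without knockdown library 1 (adjusted p = 0.079).

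The tags separated the Ccl5 classes in the direction of their RNAs for some chains only. In Cd8 cells 4 of 6 passed, where 25.9% of tags did, with CD29 at 1.33 (SE 0.13, adjusted p = 0.00201), CD49d at 0.76 (SE 0.033, adjusted p = 0.000165) and CD49a at 0.56 (SE 0.069, adjusted p = 0.00442) higher in Ccl5-high cells and CD103 lower (-0.31, SE 0.041, adjusted p = 0.00549), the opposite sign to its RNA Itgae (0.22). CD11a was not called there (-0.07, adjusted p = 0.426), although its RNA Itgal was higher. In Cd4 cells 3 of 6 passed, where 26.9% did, all higher in Ccl5-high cells: CD29 (0.53, adjusted p = 0.00694), CD49d (0.51, adjusted p = 0.0056) and CD11a (0.33, adjusted p = 0.0056). Not all 3 of these calls held when single libraries were left out. CD49a was not called in Cd4 cells (-0.0098, adjusted p = 0.882). The tag of integrin beta 7 was not called in either lineage, although its RNA differed by -1.72 in Cd8 and -2.82 in Cd4 cells.

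**Figure D4:**
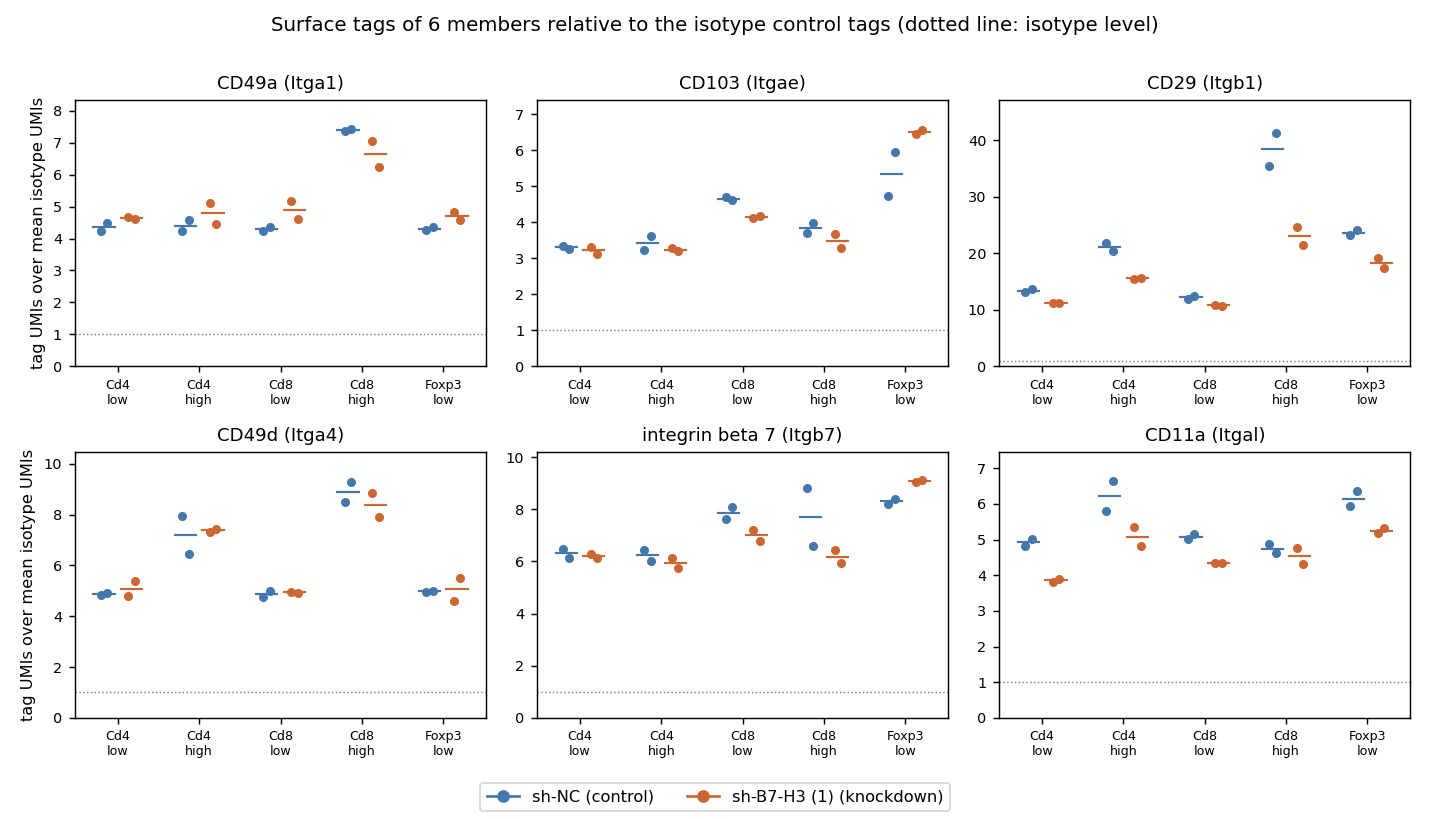
Surface tags of 6 of the proteins (times the mean isotype tag of the same cells) in Ccl5-low and Ccl5-high Cd4 and Cd8 cells and Ccl5-low Foxp3 cells, with 1 point per library, horizontal lines for group means and a dotted line at the isotype level. CD29 in Ccl5-high Cd8 cells lies at 35.6 and 41.4 in the controls and at 24.6 and 21.6 in the knockdown libraries, and CD103 in Foxp3 cells at 4.74 and 5.94 against 6.46 and 6.55.

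Other genes of the same pathways were followed from lists, whose counts refer to all Cd4 and then all Cd8 cells. Of all genes tested 42.4% passed in Cd4 and 47% in Cd8 cells. Of 13 tested tissue residency genes 9 rose and 1 fell in each lineage, with median log2 changes of 1.53 and 1.29. Cxcr6, a chemokine receptor of resident T cells, rose by 2.73 and 1.66, the transcription factors Prdm1 by 1.96 and 2.40 and Bhlhe40 by 1.79 and 2.42, and the G-protein regulator Rgs1 by 1.53 and 2.01. The gene of this list that fell was Cd69, a membrane protein that retains T cells in tissues, named after its values were seen. Cd69 was at 227.0 and 207.8 against 72.6 and 79.8 CPM in Cd4 cells (log2 change -1.61, SE 0.062, adjusted p = 5.35e-20) and at 169.8 and 173.9 against 88.7 and 84.6 CPM in Cd8 cells (-1.09, SE 0.041, adjusted p = 7.55e-18). Cd69 thus moved against the 9 genes of its list that rose.

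Within the Ccl5 classes fewer genes passed over all genes tested, 1.79 and 14.4% in Ccl5-high and 9.36 and 10.6% in Ccl5-low Cd4 and Cd8 cells. Within Ccl5-high cells 2 of 11 tested residency genes rose and none fell in Cd4 cells (median 0.07), and 6 of 11 rose and 2 fell in Cd8 cells (median 0.31). Within Ccl5-low cells 10 of 13 rose and 1 fell in Cd4 cells (median 0.97), and 4 of 12 rose and 1 fell in Cd8 cells (median 0.49). The Ccl5-low Cd4 class, like that of Cd8 cells, was not the same in both groups. Of its cells 86.4 and 81.7% had no Ccl5 UMI in controls, against 30.0 and 28.5% in knockdown libraries.

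Of 8 tested genes of a list named egress and homing 1 rose and 6 fell in each lineage, with medians of -1.14 and -1.09. The list also holds transcription factors such as Tcf7 and Eomes, so its counts are not of homing genes alone. Tcf7 fell by 1.37 and 1.32, Ccr7, which guides cells to lymph nodes, by 1.28 and 1.28, and Klf2 by 1.18 and 1.27. Eomes, a T-box factor, was the gene of this list that rose, by 2.53 and 1.46. Within Ccl5-high cells 1 of 6 tested fell in Cd4 cells, and 6 of 8 fell and 1 rose in Cd8 cells (medians -0.21 and -1.26). Within Ccl5-low cells 5 of 8 fell and 1 rose in Cd4 cells, and 3 of 8 fell and none rose in Cd8 cells (medians -0.23 and -0.12).

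Among genes of integrin activation and adaptors, a list that does not sort activators from inhibitors, more fell than rose. Of 16 tested, 2 rose and 9 fell in Cd4 cells and 4 rose and 7 fell in Cd8 cells, with medians of -0.20 and 0.0016. Rasgrp2, the exchange factor for Rap1, fell by 1.03 and 0.88, Apbb1ip, the Rap1 effector that recruits talin, by 0.48 and 0.34, and Cyth1 and Cytip by 0.66 and 0.51 and by 0.58 and 0.42.

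Of the ligands and counter-receptors, Icam1, the ligand of LFA-1, rose by 1.24 and 0.38, while Icam2, another of its ligands, fell by 0.94 and 0.96. The list had 4 tested genes, with 3 higher and 1 lower in each lineage. These counts include Cdh1, itself a member, whose call in Cd4 cells supports nothing, as given above. They also include Jam2, at 0.50 and 0.32 against 2.40 and 1.23 CPM in Cd8 cells, so they are a description. Of 10 tested TGF-beta pathway genes 2 rose and 3 fell in Cd4 cells and 4 rose and 2 fell in Cd8 cells, with medians of -0.14 and -0.016. Tgfbr3 fell by 0.86 and 0.37, Smad4 fell by 0.48 and 0.22, and Skil rose by 0.51 and 0.62. Of 19 other integrin subunits 5 and 8 could be tested, and Itgav, which pairs with several beta chains, rose by 2.14 and 1.68 while Itga6 fell by 0.70 and 0.41.

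Genes whose levels ran most like each member were sought over 24 sums of lineage, Ccl5 level and library among 4763 genes, by Pearson correlation of log2(CPM + 1). The sums share libraries, and the Ccl5-high Foxp3 sums hold few cells, so the correlations are descriptions. For Itgb2 they were Nedd9 (r = 0.979), Id2 (0.972) and Sh2d1a (0.969), and for Itga4 Fryl (0.964), Tnfsf10 (0.959) and Rinl (0.958). For Itgb7 they were Il7r (0.972), H3f3a (0.972) and Cxcr4 (0.971), and for Itgal Tgoln1 (0.942), Higd1a (0.927) and Susd3 (0.919).

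For Cdh1 they were Klrk1 (0.965), Hcst (0.909) and Zyx (0.875). The first of these encode the receptor NKG2D and its signaling adaptor DAP10. For Itga1 the values were lower, with Lax1 (0.838), Ctsd (0.836) and Klre1 (0.836), as they were for Itgb1, with Prrc2b (0.863), Sdf2l1 (0.851) and Litaf (0.837), and for Itgae, with Hopx (0.824) and Gbp3 (0.817).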

How the data were processed

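Live CD3+ T cells from pooled subcutaneous tumors were profiled by CITE-seq (10x Genomics 3' chemistry, version 3.1), in which RNA and antibody tags are counted per cell. The deposited values are raw UMI counts per gene or tag and barcode, which the authors made with Cell Ranger against mm10 without normalization. The filtered files' headers give version 6.1.1, and the submitters' processing notes list Seurat 4.0.0. Nothing in the sources used here gives a batch or date, so handling and group cannot be told apart. The series description names duplicate lanes of 1 pool, the methods a single lane and the study's other text independent samples. The libraries were taken as lanes.

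The following was computed here. Kept cells had 200 to 3000 genes and at most 5% mitochondrial UMIs. The upper limit removes 20.1 to 23.8% of called cells. Doublets were scored against simulated doublets, and the highest scores were removed at 0.8% per 1000 called barcodes (5.62 to 9.69% of tested cells). Of the removed cells 55 to 60% held Cd4 and Cd8 UMIs, against 7.7 to 14.6% of the others. Cells with at least 3 UMIs of 8 myeloid and B cell markers were left out. UMIs were summed per library and class and tested with edgeR 4.0.16 in R 4.3.3 (quasi-likelihood, TMM, Benjamini-Hochberg, and filterByExpr, which a gene can pass through 1 group alone), with the library as a block where classes of 1 library were compared. Classes under 30 cells in a library were described only. Empty droplets were barcodes with 10 to 100 RNA UMIs. Tags were fitted the same way, and 1 tag without a name was left out. In simulated counts for all Cd4 cells (10814 genes, 200 changed), 100% of genes changed by 1 or more on the log2 scale were recovered. Of the calls 3.85% were false. For Ccl5-high against Ccl5-low Cd8 cells (10032 genes, 200 changed) 100% were recovered and 5.66% of the calls were false. In the data far more genes passed, 42.4% and 54.7% of those tested in these comparisons, and many changes were smaller. The simulated rates thus do not carry over to the calls given here. Intervals and limits for zero counts (3 UMIs) cover counting error only.

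All 8 members are given in every comparison. Of each other list up to 4 genes are named, those with the largest change among genes that passed with a mean of at least 20 CPM. Members and lists were chosen with earlier results of these data known. Alternatives were DESeq2 1.42.0, no low-count filter, other cell, doublet, lineage and Ccl5 limits, thinning, a replicate block and leaving out each library. Of the genes most like each member, 3 were sought, and 1 of those for Itgae is not reported here. Protein sequences were not used here.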

Additional observations from a re-analysis of the deposited data

Results flagged for a closer look

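For several members the knockdown effect differed between classes of the same libraries by a test of the difference itself. In Cd8 cells the effect in Ccl5-high cells minus that in Ccl5-low cells was -3.95 for Itga1, -2.60 for Cdh1, -0.94 for Itgb7, -0.83 for Itgb1 and -0.31 for Itgal (log2 scale). In Cd4 cells it was -3.97 for Cdh1, -2.76 for Itgae and -1.02 for Itgb7. Cdh1 and, in Cd8 cells, Itga1 were over the filter on low counts in no Ccl5-low control, as was Itgae in Cd4 cells, so those values rest on the sums where the genes are high and are given as a description. Cdh1 in Ccl5-low Cd4 cells rested on 1, 1, 4 and 8 UMIs, and its difference was lost without any 1 of the 4 libraries. Between the lineages, the effect in Cd8 minus that in Cd4 cells was 0.79 for Itgb1 and 0.26 for Itgal. Several of these calls were not stable: Itgal between the lineages was lost without 3 of the 4 libraries and with DESeq2, Itgal between the Ccl5 classes without any 1 library, and Itgae and Itgb7 in Cd4 cells without either of 2 libraries each. Itga1 in Ccl5-low Cd8 cells rested on 7 and 8 UMIs in the controls and 20 and 25 in the knockdown libraries, so its difference carries the error of these small counts. Itga1 and Cdh1 in Ccl5-low Cd8 cells and Itgae in Cd4 cells were below the level of empty droplets in every library. Itgb7 had the opposite setting, with its difference in Cd8 cells coming from the Ccl5-high class, where it was at 84.5 and 83.7 against 43.0 and 43.0 CPM.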

How the results depend on the processing

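Of 1853 values of single members under alternatives, 1731 kept their direction and their side of the threshold, 88 lost and 34 gained a call, and none changed sign after a call. The numbers of members that passed stayed within 1.5 times in all Cd4 and all Cd8 cells, between Ccl5 classes and between Cd8 and Cd4 cells, and the cause of the following changes was not tested. With DESeq2 the number was 0 in Ccl5-high Cd4 cells (main count 1), 1 in Ccl5-low Cd4 (3), 2 in Ccl5-high Cd8 (4), 0 for the Ccl5 interaction in Cd4 (3) and 1 for the lineage interaction (2). With cells thinned to 2000 UMIs, which leaves fewer counts, it was 0, 1, 1, 0 and 1 in the same order, and 2 in Ccl5-low Cd8 cells (5) and 2 for the Ccl5 interaction in Cd8 (5). With the Otsu doublet threshold it was 2 in Ccl5-high Cd4, 2 in Ccl5-high Cd8, 2 in Ccl5-low Foxp3 (1) and 4 between Foxp3 and Cd4 cells (2). Ccl5-high Cd4 cells gave 2 without a low-count filter and 2 with the Ccl5 split at 10 UMIs, and Ccl5-low Cd4 cells gave 0 with the low class under 5 Ccl5 UMIs, a setting chosen after the data were seen. The lineage interaction gave 5 without an upper gene limit, 4 with 10% mitochondrial UMIs and 4 with Cd8 cells from 1 UMI. Isotype scaling gave 1 tag in all Cd4 (2), 2 in all Foxp3 (4) and 4 in Ccl5-low Cd8 cells (2).

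Leaving out each library in turn gave 1 to 2 members in all Foxp3, 0 to 1 in Ccl5-high Cd4, 1 to 2 in Ccl5-low Cd4, 2 to 3 in Ccl5-high Cd8, 4 to 5 in Ccl5-low Cd8 and 1 to 1 in Ccl5-low Foxp3 cells. It gave 0 to 2 and 4 to 5 for the Ccl5 interactions in Cd4 and Cd8 cells, 1 to 2 for the lineage interaction and 2 to 3 between Foxp3 and Cd4 cells. For tags it gave 1 to 2 in all Cd4, 1 to 2 in all Foxp3, 0 to 2 in Ccl5-high Cd8 and 1 to 2 in Ccl5-low Cd8 cells. A group then has 1 library, which is assumed to vary like the others.

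The replicate numbers were read as names of lanes, on which the sources differ. Deviations of same-numbered libraries from their group means correlated at -0.073 in Cd4, -0.10 in Cd8 and 0.022 in Foxp3 cells. These values show no pairing, but with 2 libraries a group they cannot exclude that same-numbered libraries were handled together. With the replicate block 7 members passed in all Cd8 cells (5403 genes, against 5556) and 1 tag in all Cd4 cells (2), and with the numbers crossed in Cd8 cells, added after the data were seen, 7 members and 5770 genes.

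Counts over all genes moved more. With DESeq2 and with thinning they were 2543 and 2310 in all Cd4 cells (4666), 3357 and 3145 in all Cd8 (5556), 215 and 123 in all Foxp3 (528), 366 and 384 in Ccl5-low Cd4 (966), 454 and 354 in Ccl5-high Cd8 (1409), 394 and 272 in Ccl5-low Cd8 (1167), 197 and 126 in Ccl5-low Foxp3 (380), 109 and 137 for the Ccl5 interaction in Cd4 (343), 161 and 104 in Cd8 (513), 114 and 173 for the lineage interaction (674), 911 and 834 between Ccl5-high Cd8 and Cd4 (1759), 1976 and 1669 between the Ccl5-low ones (3574) and 2129 and 1856 between Foxp3 and Cd4 (3525). Thinning gave 2572 and 3563 between the Ccl5 classes of Cd4 (4884) and Cd8 cells (5811). In Ccl5-high Cd4 cells (151) counts ran from 70 with DESeq2 to 341 without a low-count filter. Leaving out control 1 gave 213 in all Foxp3, 574 in Ccl5-low Cd4 and 563 in Ccl5-low Cd8 cells and 395 for the lineage interaction. Without control 2 it was 242 in all Foxp3, 267 in Ccl5-high Cd4 and 634 in Ccl5-low Cd8 cells. Without knockdown 1 it was 827 in Ccl5-high Cd8 cells, 189 for the Ccl5 interaction in Cd4 and 373 for the lineage interaction, and without knockdown 2 it was 598 in Ccl5-low Cd4, 769 in Ccl5-high Cd8, 581 in Ccl5-low Cd8, 179 for the Ccl5 interaction in Cd4 and 348 for the lineage interaction. At 2 libraries a group and 7030 to 12112 cells a library, members under about 10 CPM in a class (Itga1, Cdh1 and Itgae in Cd4 cells) rest on few UMIs.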
